A study of Mus musculus with 9 samples.

Results

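The genes described here are 44 homeobox genes out of 22180 genes with a symbol on the array: 38 genes of the Hoxa, Hoxb, Hoxc and Hoxd clusters, 3 Meis genes and 3 Pbx genes. They were taken by name. Where a gene had several probe sets assigned to it alone, the brightest over the 9 arrays (by mean) stood for it. Of the 44 genes, 42 had such a probe set and 38 were bright enough to be tested; Hoxa11 and Hoxd4 lay only on probe sets shared with a neighbouring gene, and Hoxc5, Hoxc11, Hoxd9 and Hoxd11 fell under the filter on low values.

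Hematopoietic stem cells (HSCs) were sorted from bone marrow of mice aged 6 to 8 months, gated on Sca-1, Kit and CD150 and against lineage markers, CD48 and Flt3. The KO group carried 2 floxed Bcl11a alleles (Bcl11afl/fl) and Mx1-Cre, the Het group 1 floxed and 1 wild-type allele (Bcl11afl/wt) and Mx1-Cre, and the WT group 2 floxed alleles without Cre. Per the labels' protocols all mice were given poly(I:C) 5 times; this synthetic RNA elicits interferon, which switches on Mx1-Cre. Each group had 3 biological replicates with 1 array each. Mx1-Cre is active in many cell types besides HSCs, and WT mice differed from the others in Cre as well as in Bcl11a. Sorted cells were YFP-positive or YFP-negative; the sources used here do not say which for any array.

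Hox proteins are transcription factors that bind DNA through a homeodomain. Their genes lie in clusters, in an order that follows the body axis along which they act in the embryo, and genes of the same number in different clusters are paralogs. Meis and Pbx proteins belong to the TALE class of homeodomain proteins and bind DNA together with Hox proteins. In mouse blood, Hoxa9 and Meis1 support stem cells and drive leukemia when overexpressed together, Hoxb4 expands stem cells when overexpressed, and Hoxb5 marks long-term HSCs. Genes of the Hoxc and Hoxd clusters are better known from limb and trunk patterning.

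All values are log2 expression made by the authors with RMA. Brightness also depends on the probes, so no gene is ranked above another. As a scale for transcripts that are absent, the 95th percentile of 1390 olfactory and vomeronasal receptor genes was taken on each array and lay between 4.13 and 4.77. Its mean was 4.23 on KO, 4.51 on Het and 4.52 on WT arrays. A gene is called above the receptor level where it exceeded that value. Between arrays of 1 genotype, Pearson's r over probe sets was 0.862 to 0.932.

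Some arrays stood apart. Bcl11a read 7.82, 7.90 and 8.66 on KO arrays 1, 2 and 3, 8.34, 8.37 and 8.89 on Het arrays, and 8.73, 8.81 and 8.38 on WT arrays; the array labelled KO replicate 3 lay inside the WT range. A second Bcl11a probe set read 7.26, 6.94 and 7.39 on KO arrays, 6.97, 6.70 and 7.44 on Het arrays and 6.38, 8.08 and 6.93 on WT arrays, with all groups overlapping. The sources used here give neither the deleted part of the gene nor the probe positions, so this does not check the deletion. Xist was high on KO replicate 3, Het replicate 3 and WT replicates 1 and 3, so the sexes were unbalanced. The interquartile range over probe sets was 2.83, 2.80 and 2.42 on KO arrays. On Het arrays it was 2.53, 2.39 and 2.77, and on WT arrays 2.22, 2.47 and 2.69, with the genotypes overlapping. Of 13 measured HSC marker genes, 8 were above the receptor level on all 9 arrays, among them Kit, Procr and Hlf. The mean of that list lay between 7.47 and 8.02 on KO, 7.38 and 7.71 on Het and 5.91 and 7.12 on WT arrays. In bulk RNA, fewer cells of a type and less RNA per cell cannot be told apart.

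Before the values, the sequences the results refer to are shown. For 3 members whose values matter below, the 250 bases before the annotated start are given from RefSeq (GRCm38.p6); 27 of the 44 members matched an entry there. Motifs searched on both strands were TGACCA, a motif bound by BCL11A at the human fetal globin promoters, TGACAG, bound by Meis proteins, and TGATTNAT, bound by Pbx and Hox together; TGACCA and TGACAG share the letters TGAC. Capitals mark a match, and the member promoters that matched are listed after the sequences. Hoxa9 is shown because it holds TGACCA, 242 bases before the start, at chr6:52227371-52227620 on the minus strand; Hoxd8, at chr2:74704365-74704614, and Hoxd10, at chr2:74691641-74691890, both on the plus strand, are shown because their KO arrays lay below all WT arrays and hold no match.
Hoxa9: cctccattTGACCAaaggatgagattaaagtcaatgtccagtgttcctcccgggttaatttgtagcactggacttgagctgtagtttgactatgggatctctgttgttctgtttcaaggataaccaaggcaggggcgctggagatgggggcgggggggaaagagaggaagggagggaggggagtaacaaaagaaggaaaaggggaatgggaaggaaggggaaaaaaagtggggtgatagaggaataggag
Hoxd8: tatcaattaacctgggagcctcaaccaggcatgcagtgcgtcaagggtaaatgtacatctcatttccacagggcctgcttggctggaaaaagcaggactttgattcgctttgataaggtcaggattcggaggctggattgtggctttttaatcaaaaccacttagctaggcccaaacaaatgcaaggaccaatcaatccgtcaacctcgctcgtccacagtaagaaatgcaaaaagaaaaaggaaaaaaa
Hoxd10: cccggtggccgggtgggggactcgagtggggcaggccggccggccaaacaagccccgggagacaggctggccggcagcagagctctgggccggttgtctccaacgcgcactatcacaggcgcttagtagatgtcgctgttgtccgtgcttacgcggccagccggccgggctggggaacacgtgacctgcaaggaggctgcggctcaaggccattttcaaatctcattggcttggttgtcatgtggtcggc
Among 32851 promoters of this length TGACCA occurred in 11.4%, TGACAG in 15.9% and TGATTNAT in 2.82%. Among the 29 promoters of the members, TGACCA occurred in 3 (Hoxa9, Hoxa11 and Hoxd3), TGACAG in 2 (Hoxa2 and Hoxa3) and TGATTNAT in 2 (Hoxa2 and Hoxd11). The upstream sequence of Hoxa9 had a GC content of 49.6%, that of Hoxd8 44.4% and that of Hoxd10 65.6%.

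The clusters also hold microRNA genes. The mature sequences of the miR-10 and miR-196 families are shown to set out which of them share a seed (bases 2 to 8, in capitals), since the microRNA genes Mir10a, Mir10b and Mir196a-1 are read by probe sets below.
mmu-miR-10a-5p: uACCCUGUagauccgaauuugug
mmu-miR-10b-5p: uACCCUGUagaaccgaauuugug
mmu-miR-196a-5p: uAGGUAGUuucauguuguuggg
mmu-miR-196b-5p: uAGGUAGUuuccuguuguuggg
The first pair shares the seed ACCCUGU and the second pair the seed AGGUAGU. The array measures the precursor transcript where it measures these genes at all, not the mature microRNA.

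Of 42 measured members, 8 (19.0%) were above the receptor level on all 9 arrays, 16 on some and 18 (42.9%) on none; over all 22180 genes the shares were 29.8% on all and 40.8% on none. The 8 were Hoxa5, Hoxa6, Hoxa9, Hoxb4, Hoxb5, Hoxb6, Hoxd8 and Meis1. By cluster, 3 of 9 measured Hoxa genes and 3 of 10 Hoxb genes were above it on all arrays, against 0 of 9 Hoxc and 1 of 8 Hoxd genes. In Hoxa and Hoxb these lay at positions 4 to 9. Other genes in that range were above it less often: Hoxb7 on no array, Hoxb8 on 3, Hoxa4 and Hoxb9 on 4. Hoxa3 and Hoxb3, outside the range, were above it on 8. The first Hoxb gene, Hoxb1, and the last genes, Hoxa13 and Hoxb13, were above it on no array. With the 90th or the 99th percentile in place of the 95th, 13 or 2 members were above it on all 9 arrays.

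**Figure D1:**
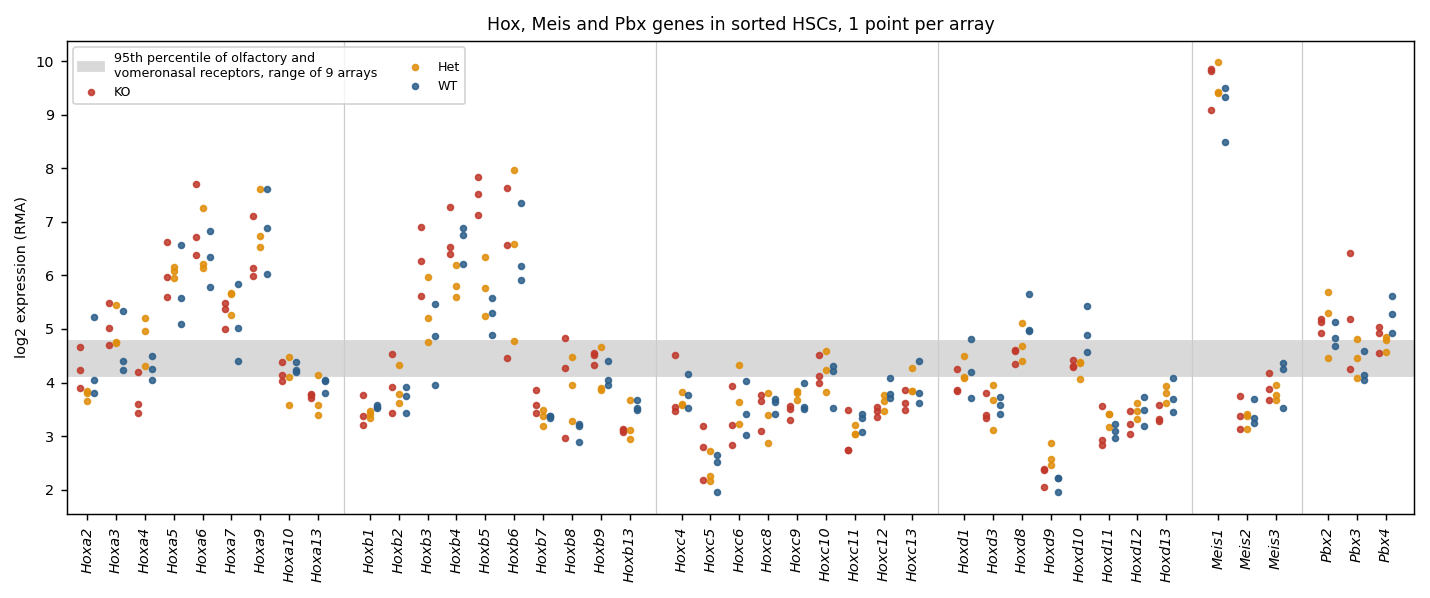
Log2 expression of the measured members on each of the 9 arrays, by cluster and position, with the range of the receptor 95th percentile. Hoxa5, Hoxa6, Hoxa9, Hoxb4, Hoxb5, Hoxb6, Hoxd8 and Meis1 lie above that percentile on every array, and no Hoxc gene does.

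KO cells, labelled as homozygously deleted for Bcl11a, were set against WT cells, which also lacked Cre. The arrays do not check the deletion. No member passed the test: 0 of 38 tested members were called at an adjusted p under 0.05, where 0.0421% of all genes were called with limma (7 of 16636). At an unadjusted p under 0.05 there were 4 members, Hoxb5, Hoxb3, Hoxd8 and Hoxd10 (10.5%, against 8.21% of all genes). Of the 38, 16 were higher and 22 lower in KO cells, with a median difference of −0.08, against −0.04 over all genes tested. KO and WT arrays did not overlap for 8 members (21.1%, against 13.8% of all genes): Hoxb3, Hoxb5 and Hoxb7 were higher (6.51% of all genes), and Hoxa13, Hoxb13, Hoxc12, Hoxd8 and Hoxd10 lower (7.32%). Among these 8, Hoxb7, Hoxa13, Hoxb13 and Hoxc12 were above the receptor level on no array. Hoxb13, with means of 3.11 in KO, 3.25 in Het and 3.56 in WT cells, passed the filter at 3.31 only through its WT arrays, so its place in this count follows in part from the filter. The exact two-sided permutation test of 3 arrays against 3 cannot go below p = 0.1.

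By cluster, the median KO minus WT difference was 0.26 in Hoxb (7 higher, 3 lower), −0.08 in Hoxa (4 higher, 5 lower), −0.17 in Hoxc (2 higher, 5 lower) and −0.30 in Hoxd (0 higher, 6 lower). These counts cover tested genes only. The filter removed Hoxc5 (KO minus WT 0.35), Hoxc11 (−0.28), Hoxd9 (0.14) and Hoxd11 (0.02) from them. Hoxd12, with means of 3.24 in KO, 3.47 in Het and 3.47 in WT cells, passed the filter at 3.31 only through its Het and WT arrays. The count of Hoxd genes lower in KO cells therefore follows in part from the filter. In Hoxb, Hoxb8 (KO minus WT 0.93) passed the filter only through its KO and Het arrays, and Hoxb13 (−0.46) only through its WT arrays. The Hoxb count and median therefore also follow in part from the filter. Hoxb5 counts as higher with either of its 2 probe sets, at 2.24 with the set used and 0.53 with the other. Differences between the clusters were not tested. The receptor level was itself lower on average on KO than on WT arrays, with single arrays overlapping. The median of the receptors averaged 2.16 on KO and 2.30 on WT arrays. When each array was centred on that receptor median, the KO minus WT median over all genes was 0.10, in place of −0.04. With that centring the cluster medians were 0.40 in Hoxb (8 higher, 2 lower), 0.06 in Hoxa (6 higher, 3 lower), −0.03 in Hoxc (3 higher, 4 lower) and −0.16 in Hoxd (1 higher, 5 lower). This centring moves every gene by the same amount, so it turns the sign of the medians nearest 0. It does not adjust for the spread of values within an array. Over genes at or above the median level, the KO minus WT median was 0.07, in place of −0.04. The part of array spread in the cluster medians was not tested. The Meis median was −0.003 as reported and 0.14 with the centring, and the Pbx median 0.20 and 0.34.

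**Figure D2:**
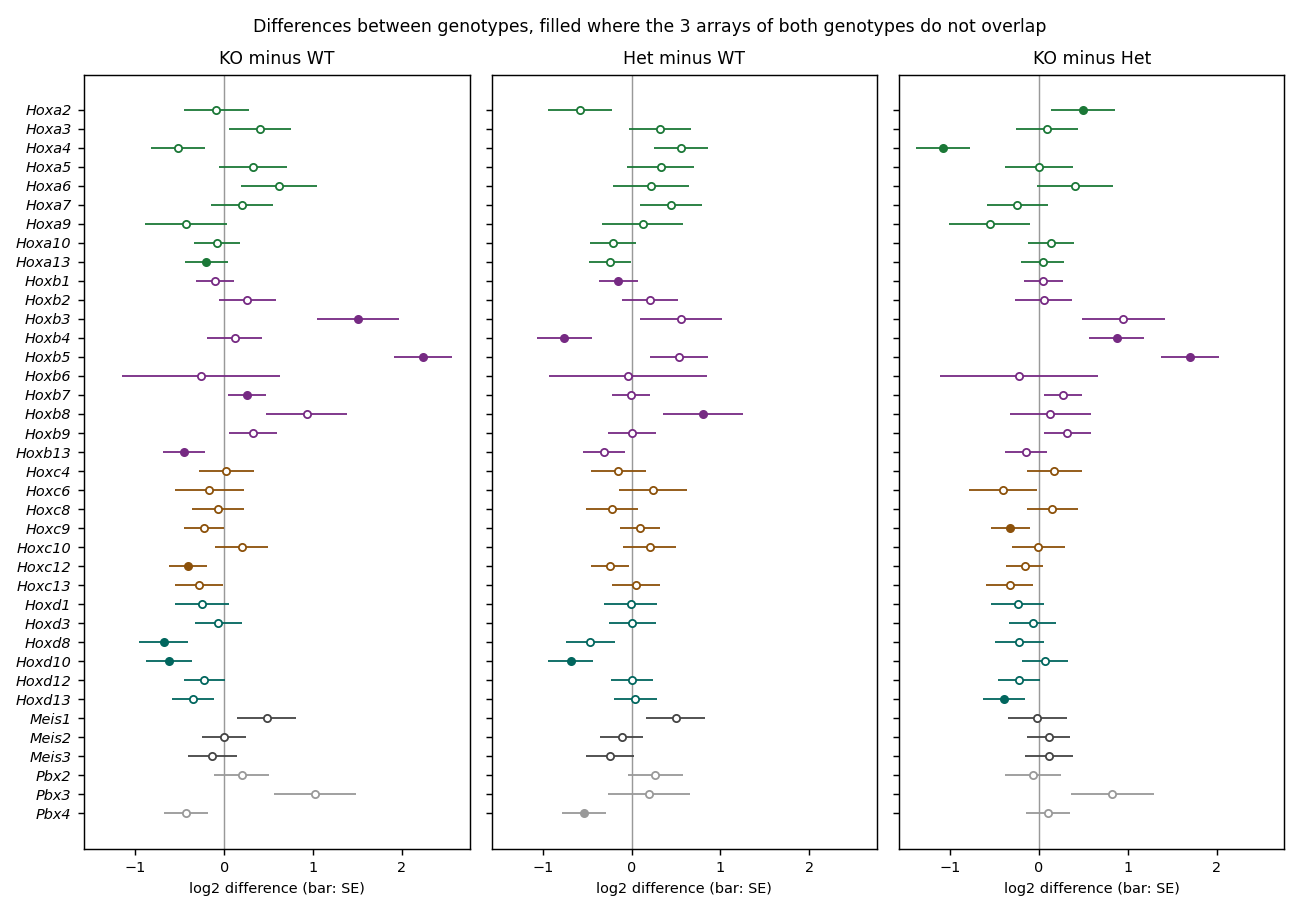
Log2 difference of each tested member in KO minus WT, Het minus WT and KO minus Het, with its standard error from limma. Hoxb5, read by the brighter of its 2 probe sets, stands apart in KO minus WT, at 2.24, and in KO minus Het, at 1.70. With the other set these differences were 0.53 and 0.15. No member passed an adjusted p of 0.05.

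Hoxb5 read 7.84, 7.52 and 7.12 on KO arrays, 5.77, 5.25 and 6.35 on Het arrays and 5.30, 4.89 and 5.58 on WT arrays. Every KO array was above every other array, and Het and WT arrays overlapped. The means were 7.49 ± 0.361 in KO, 5.79 ± 0.550 in Het and 5.26 ± 0.347 in WT cells (SD, n = 3 each). KO was 4.71-fold higher than WT (log2 difference 2.24, SE 0.328), which did not pass limma's test over all genes (adjusted p = 0.0566, exact permutation p = 0.1). KO minus Het was 1.70 (adjusted p = 0.481) and Het minus WT 0.53 (adjusted p = 0.992). Per deleted allele the slope was 1.12 (SE 0.186, adjusted p = 0.10). When the fit included array interquartile range, KO minus WT was 1.91 (adjusted p = 0.179). Without the array labelled KO replicate 3 and WT replicate 1, left out together after seeing the data, KO minus WT was 2.45 (adjusted p = 0.184). Within arrays of high Xist it was 1.68 (1 KO and 2 WT arrays) and within the others 2.79 (2 KO and 1 WT array). Each of these values has 1 array on one side, so the difference between the sexes cannot be judged.

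The Hoxb5 difference depends on which probe set is read. Hoxb5 was the only member with 2 probe sets of its own. The second read 7.03, 5.66 and 4.98 on KO arrays, 5.15, 6.11 and 5.95 on Het arrays and 4.89, 5.71 and 5.49 on WT arrays. Its groups overlapped: the means were 5.89 ± 1.04 in KO, 5.74 ± 0.514 in Het and 5.36 ± 0.424 in WT cells, a KO minus WT difference of 0.53. Over the WT arrays alone the second set was the brighter one (5.36, against 5.26), so the rule that chose the first set did so through its KO values. With the set that was brightest in WT, an alternative chosen after seeing the data, KO minus WT was 0.53 (adjusted p = 0.76). With the mean of both sets it was 1.38 (adjusted p = 0.32). KO minus Het was 0.15 with the set brightest in WT and 0.93 with the mean of both sets (adjusted p = 0.998 for each). The slope per deleted allele was 0.26 with the set brightest in WT and 0.69 with the mean of both sets. In the probe list the first set stands between Hoxb6 and Hoxb4 and the second next to a set shared by Hoxb3 and Hoxb2; the sources used here do not say which transcripts or which strand each set reads.

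**Figure D3:**
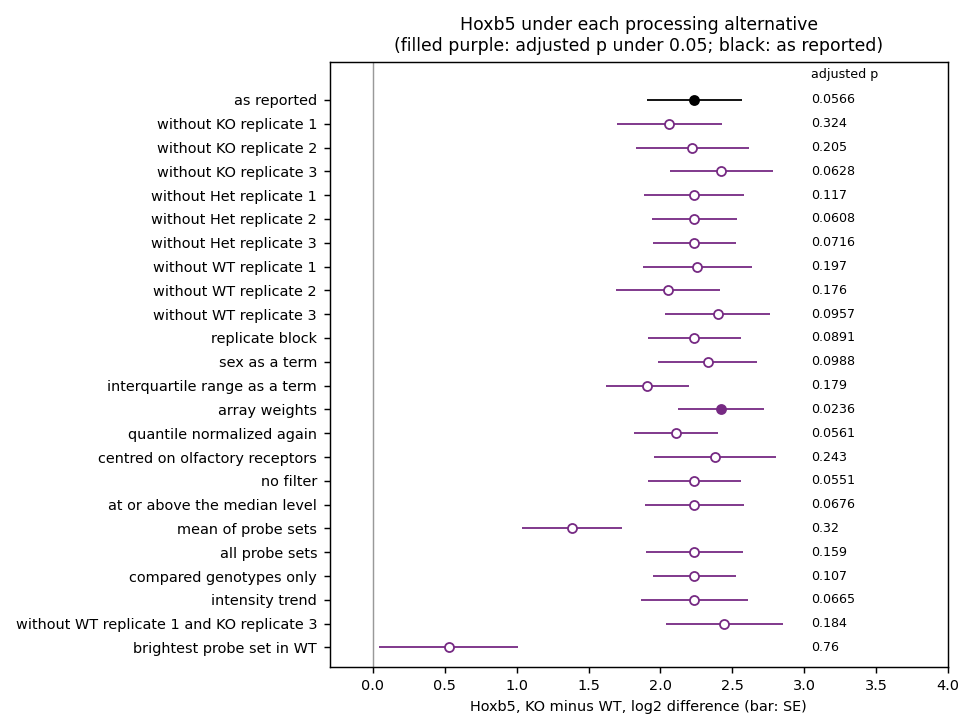
KO minus WT difference of Hoxb5 (log2, with standard error) under each alternative, with the adjusted p at the right. Differences run between 0.53 and 2.45, and array weights are the alternative under which the adjusted p, 0.0236, was under 0.05.

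Hoxb3, which neighbours Hoxb4 in the cluster, read 6.91, 5.61 and 6.26 on KO arrays, 5.97, 4.76 and 5.20 on Het arrays and 3.95, 4.86 and 5.46 on WT arrays. KO arrays were above all WT arrays, with Het arrays overlapping both. KO minus WT was 1.50 (SE 0.463, adjusted p = 0.456) and KO minus Het 0.95 (adjusted p = 0.998). The WT replicate 1 value of 3.95 was under the receptor level. Leaving out single arrays moved KO minus WT between 1.10 (without WT replicate 1) and 1.85. When the fit included array interquartile range, it was 1.17 (adjusted p = 0.733). Within arrays of high Xist the difference was 1.56 and within the others 1.40. A probe set shared by Hoxb3 and Hoxb2 differed by −0.25 between KO and WT.

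Hoxb4, which expands HSCs when overexpressed, read 7.28, 6.40 and 6.53 on KO arrays, 6.20, 5.80 and 5.59 on Het arrays and 6.75, 6.89 and 6.22 on WT arrays. Het arrays lay below every KO and every WT array. Het minus WT was −0.76 (SE 0.306, adjusted p = 0.972) and KO minus Het 0.87 (SE 0.306, adjusted p = 0.998). KO minus WT was 0.12 (adjusted p = 0.918) and changed sign with some settings.

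Among the other Hoxb genes, Hoxb8, which can immortalise myeloid progenitors when overexpressed, read 4.28, 4.84 and 2.96 on KO arrays, 3.95, 3.28 and 4.47 on Het arrays and 2.89, 3.18 and 3.22 on WT arrays. Het arrays were above all WT arrays, and KO arrays were not. All WT arrays lay under the filter at 3.31, so Hoxb8 was tested only through its KO and Het arrays, and its differences from WT follow in part from that. It was above the receptor level on 3 of 9 arrays (KO minus WT 0.93, adjusted p = 0.628; Het minus WT 0.80, adjusted p = 0.992). KO minus WT was 0.52 without KO replicate 2, 1.46 without KO replicate 3 and 0.38 when the fit included array interquartile range, and Het minus WT was 0.52 without Het replicate 3. Within arrays of high Xist the KO minus WT difference was −0.10 (1 KO and 2 WT arrays) and within the others 1.38 (2 KO and 1 WT array). Hoxb6 had the widest spread of the cluster, from 4.46 to 7.64 on KO, 4.77 to 7.97 on Het and 5.91 to 7.36 on WT arrays (KO minus WT −0.26, SE 0.888). Hoxb2 was above the receptor level on 2 arrays, at 3.43 to 4.54, and Hoxb9 on 4, at 3.86 to 4.67. Hoxb1 (3.21 to 3.77), Hoxb7 (3.19 to 3.86) and Hoxb13 (2.95 to 3.68) were above it on none.

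**Figure D4:**
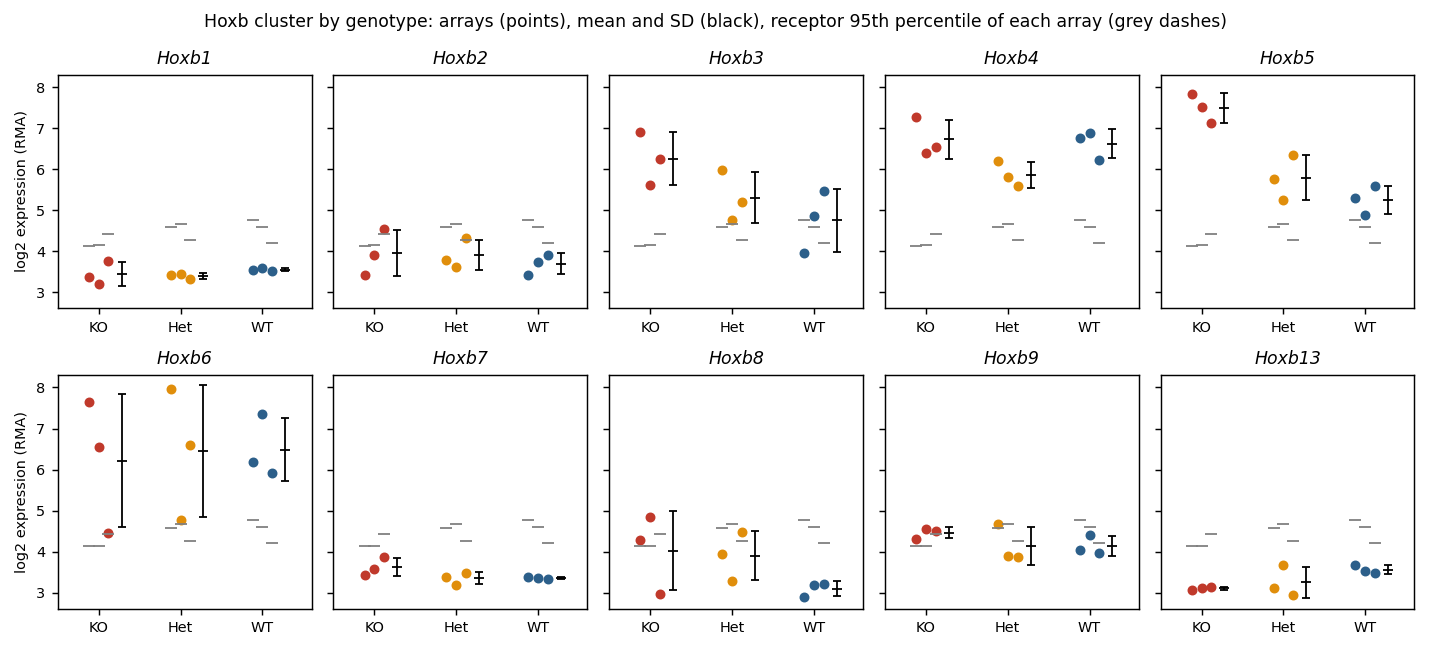
Log2 expression of the 10 Hoxb genes by array, with the mean and SD per genotype and the receptor 95th percentile as dashes. Hoxb5 and Hoxb3 read higher on all KO arrays than on all WT arrays, Hoxb4 read lowest on Het arrays, and the Hoxb6 values of the genotypes overlap.

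In the Hoxa cluster, Hoxa9, a gene that HSC function needs, read 7.11, 6.13 and 5.98 on KO arrays, 6.53, 7.62 and 6.74 on Het arrays and 7.61, 6.89 and 6.02 on WT arrays. The genotypes overlapped, and KO minus WT was −0.43 (SE 0.459, adjusted p = 0.79), with −0.84 without WT replicate 3, −0.05 without WT replicate 1 and −0.17 when the fit included array interquartile range. Hoxa10, its neighbour, read 4.38, 4.15 and 4.03 on KO arrays, 4.11, 4.47 and 3.59 on Het arrays and 4.24, 4.19 and 4.38 on WT arrays, and was above the receptor level on 2 arrays (KO minus WT −0.08, adjusted p = 0.932). Hoxa4 read 3.60, 4.20 and 3.44 on KO arrays, 4.96, 4.30 and 5.21 on Het arrays and 4.49, 4.04 and 4.26 on WT arrays. Its KO arrays lay below all Het arrays, with WT arrays in between and overlapping both (KO minus Het −1.08, SE 0.303, adjusted p = 0.998; KO minus WT −0.52, adjusted p = 0.671). KO and Het arrays also did not overlap for Hoxa2, which was above the receptor level on 3 arrays. Hoxa3 and Hoxa7 were above it on 8 arrays and Hoxa5 and Hoxa6 on 9. Hoxa6 read between 6.39 and 7.71 on KO, 6.14 and 7.25 on Het and 5.78 and 6.83 on WT arrays (KO minus WT 0.62, adjusted p = 0.711). Over all arrays Hoxa3 read 4.24 to 5.49, Hoxa5 5.09 to 6.62 and Hoxa7 4.41 to 5.84, with the genotypes overlapping. Hoxa13 was above the receptor level on none, at 3.40 to 4.15.

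In the Hoxd cluster, Hoxd8 read 4.61, 4.35 and 4.58 on KO arrays, 5.11, 4.68 and 4.41 on Het arrays and 4.96, 5.65 and 4.98 on WT arrays. KO arrays lay below all WT arrays and Het arrays overlapped both (KO minus WT −0.68, SE 0.273, adjusted p = 0.570). Its upstream sequence is shown above. Hoxd10 read 4.29, 4.30 and 4.43 on KO arrays, 4.37, 4.39 and 4.06 on Het arrays and 5.43, 4.88 and 4.57 on WT arrays. Both KO and Het arrays lay below all WT arrays (KO minus WT −0.62, adjusted p = 0.579; Het minus WT −0.69, adjusted p = 0.967). Hoxd10 was above the receptor level on 6 arrays. Its KO minus WT difference was −0.39 without WT replicate 1 (adjusted p = 0.929) and −0.38 when the fit included array interquartile range. Within arrays of high Xist Hoxd8 differed by −0.39 and Hoxd10 by −0.57, and within the others by −1.17 and −0.58. Hoxd13, the last gene of the cluster, read 3.58, 3.32 and 3.28 on KO arrays, 3.94, 3.80 and 3.61 on Het arrays and 4.08, 3.69 and 3.45 on WT arrays, all under that level. Hoxd1 was above it on 1 array, at 3.71 to 4.81, and Hoxd3, Hoxd9, Hoxd11 and Hoxd12 on none, Hoxd9 at 1.95 to 2.87.

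Of the Hoxc genes, Hoxc4 and Hoxc10 were above the receptor level on 1 array each and the other 7 on none. The 9 genes read between 1.95 and 4.59 over all arrays. The 7 tested had KO minus WT differences from −0.41 to 0.20 and adjusted p from 0.644 to 0.990.

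Of the cofactors, Meis1, the partner of Hoxa9 in stem cells and leukemia, read 9.81, 9.85 and 9.09 on KO arrays, 9.40, 9.43 and 9.98 on Het arrays and 8.50, 9.49 and 9.33 on WT arrays. The groups overlapped (KO minus WT 0.48, SE 0.332, with an adjusted p of 0.712, and Het minus WT 0.50, with 0.992). Without WT replicate 1, the lowest array, KO minus WT was 0.17 (adjusted p = 0.975), without KO replicate 3 it was 0.72, and when the fit included array interquartile range it was 0.08. Meis2 and Meis3 were above the receptor level on no array, at 3.13 to 3.75 and 3.52 to 4.36. Pbx3, a cofactor of Hoxa9 in leukemia, read 6.41, 5.19 and 4.25 on KO arrays, 4.09, 4.46 and 4.82 on Het arrays and 4.04, 4.59 and 4.15 on WT arrays. It was above the receptor level on 3 arrays, KO replicates 1 and 2 and Het replicate 3, and so on no WT array. KO replicates 1 and 2 were the highest of the 9, and the array labelled KO replicate 3 lay inside the WT range (KO minus WT 1.02, SE 0.465, adjusted p = 0.610). The difference was 0.46 without KO replicate 1, 1.54 without KO replicate 3 and 0.60 when the fit included array interquartile range. Within arrays of high Xist it was 0.16 (1 KO and 2 WT arrays) and within the others 1.21 (2 KO and 1 WT array). Pbx4 read 5.03, 4.56 and 4.93 on KO arrays, 4.57, 4.85 and 4.80 on Het arrays and 5.61, 5.28 and 4.93 on WT arrays. Its Het arrays lay below all WT arrays (Het minus WT −0.53, adjusted p = 0.992; KO minus WT −0.43, adjusted p = 0.660). Pbx2 was above the receptor level on 8 arrays and had a KO minus WT difference of 0.20 (adjusted p = 0.863). 

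**Figure D5:**
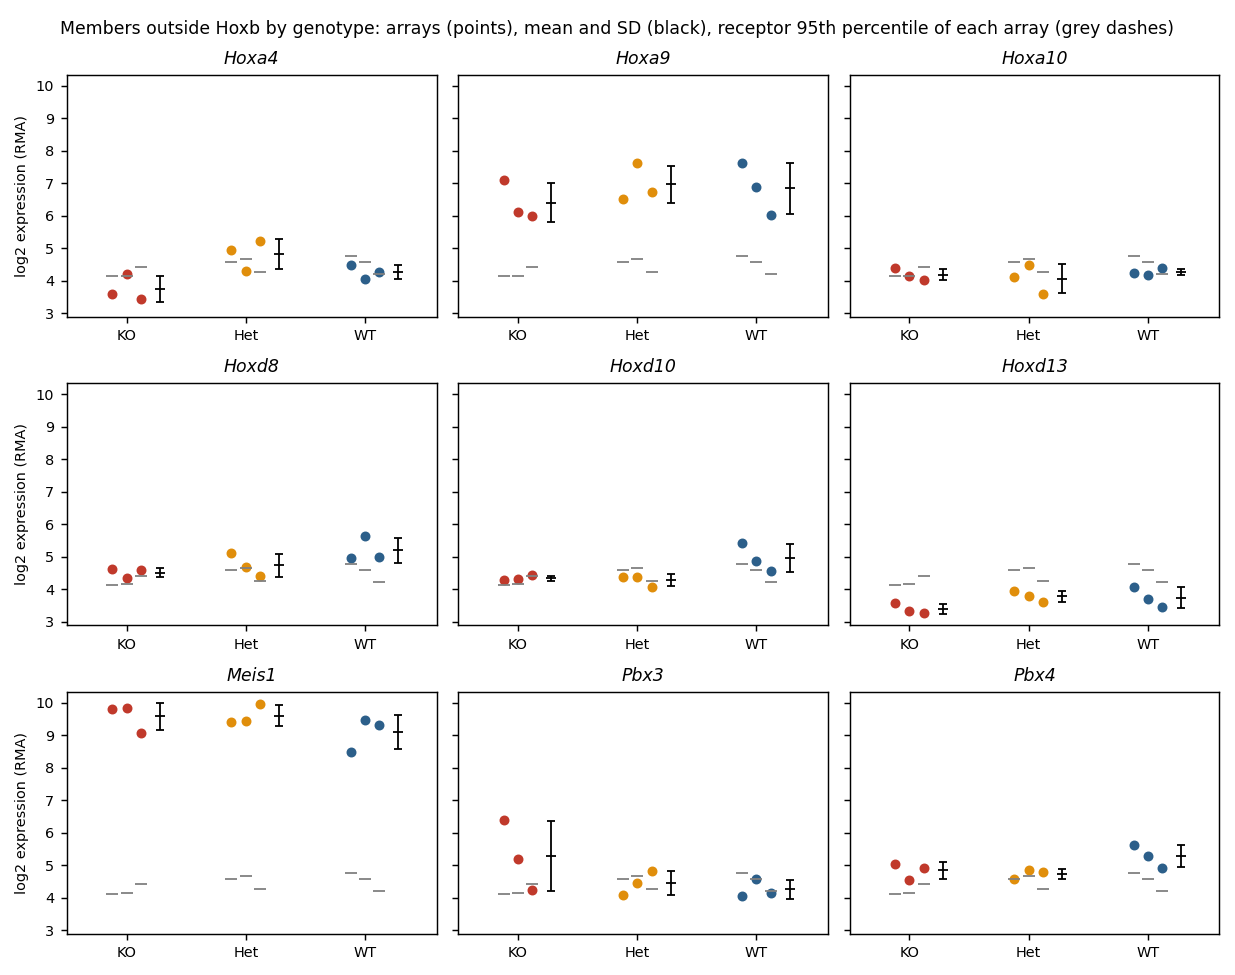
Log2 expression of the named members outside Hoxb by array, with the mean and SD per genotype and the receptor 95th percentile as dashes. Meis1 lies far above that percentile in every genotype, the KO arrays of Hoxd8 and Hoxd10 lie below all WT arrays, and Pbx3 is high on 2 KO arrays.

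The Het cells, labelled as heterozygously deleted, were also set against WT cells. No member was called, and no gene was (0% of 16636 genes with limma; 813 genes at an unadjusted p under 0.05). Of 38 members 21 were higher and 17 lower in Het cells, with a median of 0.01, against −0.01 over all genes. Arrays did not overlap for 5 members (13.2%, against 8.41% of all genes): Hoxb8 was higher (4.51%), and Hoxb1, Hoxb4, Hoxd10 and Pbx4 lower (3.9%). At an unadjusted p under 0.05 there were 2, Hoxd10 and Hoxb4 (4.89% of all genes). Hoxb1 was above the receptor level on no array, and Hoxb8 passed the filter only through its KO and Het arrays.

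The comparison of KO with Het sets cells labelled homozygously deleted against cells labelled heterozygously deleted. No member was called (0% of all genes with limma; 759 genes at an unadjusted p under 0.05). Of 38 members 20 were higher and 18 lower in KO cells, with a median of 0.04, against −0.02 over all genes. Arrays did not overlap for 6 members (15.8%, against 9.82% of all genes): Hoxa2, Hoxb4 and Hoxb5 were higher (4.42%), and Hoxa4, Hoxc9 and Hoxd13 lower (5.4%). Unadjusted p was under 0.05 for Hoxb5, Hoxa4 and Hoxb4 (4.56% of all genes). In the fit on the number of deleted alleles, 0 members were called, where 0.018% of all genes were (3 of 16636). At an unadjusted p under 0.05 there were 5 members, Hoxb3, Hoxb5, Hoxd8, Hoxd10 and Pbx3 (13.2%, against 8.65% of all genes). Hoxb5 enters these counts through its first probe set, and on its second the genotypes overlapped. KO minus WT and Het minus WT share the WT arrays, and KO minus WT and KO minus Het share the KO arrays, so the comparisons are not independent.

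Of 18 RNA genes listed for the clusters, 7 were measured and 6 tested, of which 0 were called in any comparison. Hoxaas3 was above the receptor level on 6 arrays and read between 3.98 and 5.95 on KO, 4.90 and 5.38 on Het and 4.27 and 5.84 on WT arrays (KO minus WT −0.01). A probe set shared by Hoxa7 and the RNA gene Mira read between 6.44 and 8.00 and was above the receptor level on all 9 arrays (KO minus WT −0.17), as was a set shared by Hoxa3 and an unnamed transcript. The sets for Hoxa11 with Hoxa11os, Hoxd4 with Hoxd3, and Mir10a with Hoxb4 were above it on no array, nor were Hotair, Hoxd3os1, Mir10b, Mir196a-2 and Mir615. Mir196a-1, a precursor of the miR-196a sequence shown above, read 3.64, 3.54 and 3.98 on KO arrays, 4.10, 4.48 and 3.91 on Het arrays and 4.81, 5.06 and 3.90 on WT arrays. It was above the receptor level on 2 arrays (KO minus WT −0.87, adjusted p = 0.556).

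Genes that act on or with the Hox genes were described by lists chosen with results of these data known. Of 37 tested Hox regulators (trithorax, Polycomb and Cdx genes), 22 were higher in KO cells and 0 were called, with a median difference of 0.05, against −0.04 over all genes. Mllt3, an HSC maintenance gene of the super elongation complex, averaged 9.59 ± 0.228 in KO, 9.05 ± 0.211 in Het and 8.05 ± 0.118 in WT cells (KO minus WT 1.53, adjusted p = 0.0566). Ezh1, a Polycomb methyltransferase, differed by 1.20, Aff1 by 1.09 and Pcgf2 by 0.87, none passing. Cdx1, Cdx2, Cdx4 and Cbx8 were above the receptor level on no array. Of 9 tested TALE genes outside Meis and Pbx, 3 were higher (median −0.13), with Irx1 at −0.63, Tgif1 at −0.34, Irx2 at −0.20 and Irx5 at −0.19. Of 20 tested targets of Hoxa9 and Meis1 in blood cells, 15 were higher in KO cells and 0 were called (median 0.13). Mecom, which HSCs need, differed by 1.94 and Cd34 by 1.62, while Cdk6, a cell cycle kinase, differed by −1.03 and Flt3 by −1.06.

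Markers of several cell types read differently on the same arrays. All 13 tested HSC markers were higher in KO cells (median 1.13), Meis1 and Mllt3 among them, and 6 of 8 tested endothelial markers (median 1.22), whose list mean lay between 5.82 and 6.12 on KO, 5.14 and 5.84 on Het and 4.35 and 5.27 on WT arrays. Of 15 tested myeloid markers 4 were higher (median −0.26), and of 16 immediate early and stress genes 14 were (median 0.56). None of these genes was called. Their part in the Hox and cofactor values was not tested. Of 16 measured mesenchymal stroma and bone markers 0 were above the receptor level on all arrays and 8 on none, Pdgfra, Lepr, Prrx1 and Sp7 included; 1 of 11 tested was higher, and the list mean lay between 3.47 and 3.78 on KO, 3.53 and 3.83 on Het and 3.68 and 3.91 on WT arrays.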

How the data were processed

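RNA of 9 HSC samples (3 KO, 3 Het, 3 WT) was amplified, biotin-labelled and read on Affymetrix Mouse Gene 2.0 ST chips, 1 per sample, per the labels' protocols. The authors deposited log2 expression per probe set; RMA produced it, per the submitters' processing notes, and the sources used here name neither its version nor a build. RMA compresses differences of dim transcripts, and the number of arrays limits the precision (median standard error of KO minus WT 0.298).

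Of 41345 probe sets, 23521 had 1 gene symbol, 1814 had several and 16010 were not listed. Gene identifiers updated the symbols of 23328 sets and failed for 193. The brightest single-symbol set stood for each of 22180 genes, and genes under the 25th percentile of the mean (log2 3.31) were removed, leaving 16636. The limma package (3.58.1, R 4.3.3; tested on simulated data) fitted, with lmFit and eBayes, a mean per genotype over all 9 arrays, with 6 residual and 4.26 prior degrees of freedom; p-values are two-sided and Benjamini-Hochberg adjusted over all genes tested, with calls at 0.05. Single members were also given the exact permutation test over arrays (Python 3.11.15, scipy 1.17.1). Sequences came from RefSeq tables. Replicates are biological per the labels.

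The members and the gene lists were chosen with earlier results of these data known. All members are accounted for; single arrays are given for the 6 members with the smallest unadjusted p in each comparison of genotypes and always for Hoxa9, Hoxa10, Hoxb4, Hoxb5, Meis1 and Pbx3, and up to 4 genes of each other list. Alternatives changed the arrays used, covariates, weights, normalization, filter, probe set choice and test. Leaving out WT replicate 1 with KO replicate 3, and the set brightest in WT, were added after seeing the data.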

Additional observations from a re-analysis of the deposited data

Results flagged for a closer look

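The second probe set of Hoxb5, outside the main comparisons and used only in alternatives, averaged 5.89 on the KO arrays and 5.7367 on the Het arrays, each above the highest of the WT arrays, 5.71. The KO mean rests on KO replicate 1, at 7.03, since the other KO arrays read 5.66 and 4.98, inside or below the WT and Het values.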

How the results depend on the processing

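Over 522 recomputations of single members, 513 kept the direction and side of the threshold, 3 passed it and 6 changed sign. Many of these could not change the difference, such as leaving out an array of the genotype not compared or changing the filter. Changing the probe set choice did not affect members with 1 probe set of their own. For members other than Hoxb5, adjusted p was well above 0.05 throughout. The count of 513 is therefore no measure of how stable the results are. With array weights 1 member, Hoxb5, was called in KO minus WT (2.42, adjusted p = 0.0236), where 24 of 16636 genes were called. The fit on deleted alleles with array weights also called Hoxb5 (1.22, adjusted p = 0.0358), where 15 of 16636 genes were called. Without Het replicate 2 that fit called Hoxb5 as well (1.12, adjusted p = 0.0484), where 6 of 16638 genes were called. Leaving out single arrays gave 0 to 1 calls of members there. No alternative called a member in Het minus WT or KO minus Het, and none called any other gene there. Over all alternatives the adjusted p of Hoxb5 in KO minus WT lay between 0.0236 and 0.76. KO minus WT turned to 0.165 for Hoxa9 without WT replicate 1 and KO replicate 3 (−0.843 to −0.048 without single arrays), to 0.057 for Hoxa10 when arrays were centred on the receptors, and for Hoxb4 to −0.008 with sex as a term and −0.011 when quantile normalized again, with −0.155 to 0.285 when single arrays were left out (−0.155 without KO replicate 1, −0.083 without WT replicate 3). When single arrays were left out, members without overlap numbered 9 to 13 of 38 in KO minus WT, against 20.3% to 32.1% of all genes over the arrays left out. The 13 came without KO replicate 3, where the share of all genes was 31.4%. In Het minus WT they numbered 5 to 11 of 38, against 15.7% to 23.5%. There were 9 without Het replicate 1, WT replicate 1 or WT replicate 2 (17.3%, 15.7% and 16.4% of all genes) and 11 without Het replicate 2 (17.7%). In KO minus Het they numbered 8 to 11 of 38, against 16.8% to 26.3%. There were 10 without KO replicate 3 (24.4% of all genes) and 11 without Het replicate 3 (26.3%). Fewer arrays separate more easily. When quantile normalized again, 3 members did not overlap in Het minus WT, and the share of all genes in that setting is not given here. Members above the receptor level on all arrays numbered 13 at the 90th percentile, 2 at the 99th and 8 to 10 without single arrays.

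Whether the replicate numbers pair the samples could not be settled. Deviations from the genotype means correlated between −0.185 and 0.229 for same-numbered arrays. For other arrays of different genotypes they correlated between −0.16 and 0.196. With 3 arrays per genotype, this cannot exclude that same-numbered samples were handled together. Xist was high on every array numbered 3 and low on every array numbered 2. With the number as a block, 0 members were called in any comparison and Hoxb5 differed by 2.24 in KO minus WT (adjusted p = 0.0891).

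With 3 arrays per genotype and p-values adjusted over all genes, differences well above their standard error could also go uncalled. For Hoxb3, KO minus WT was 1.50 with SE 0.463, and limma's adjusted p was 0.456. Members that were not called may therefore still differ between genotypes. Genes under the receptor level lie within the range of transcripts taken as absent, so their differences are hard to read.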
